A study of Arabidopsis thaliana with 2 samples.

Results

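The authors' intron retention table lists 115 introns of Arabidopsis thaliana, and 51 of them had a lower retained share in embryos of the lefko mutant than in wild-type embryos. The introns described here are 37 of those 51 and are listed under 36 genes, 1 of which does not contain its intron (AT1G78840). Among the listed introns, which all had an authors' false discovery rate of up to 0.05, they were chosen by that direction alone. For this the 3 read counts joined in each cell were summed. A list of 13 genes was left out by name, and the other 14 introns lie in genes of that list. Embryos between globular and heart stage were taken by dissection from siliques of lefko mutant plants and of Col-0 plants without the mutation, both in the Col-0 ecotype and grown on solid medium and then in pots. The mutant sample is labelled lefko1 and the protocol and table headings write lefko2, and both names were taken for the 1 mutant sample. Neither the mutated gene nor the number of plants pooled is given in the sources used here. The labels give 1 sample per genotype, so no difference below has a replicate check, and since the direction chose the introns, no difference in retention was tested.

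Most plant genes carry introns, which the spliceosome removes after recognising a 5′ splice site that usually begins with GT and a 3′ splice site that ends with AG. An intron that stays in the messenger RNA is called retained, and intron retention is the commonest form of alternative splicing in Arabidopsis. A retained intron between coding exons is read by the ribosome if the RNA reaches the cytoplasm, and often brings a stop codon into frame. RNAs whose stop codon lies well upstream of the last exon junction can be degraded by nonsense-mediated decay. A retained intron in an untranslated region (UTR) leaves the annotated coding sequence unchanged. Effects of such introns on translation or on the stability of the RNA were not examined. A lower retained share means that more of the reads at that intron came from spliced RNA.

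Of the 37 introns, 21 lay between coding exons, and in 15 of these the annotated reading frame met a stop codon inside the intron. Positions are counted from 1 at the first base of the intron. In 5 introns the stop began within the first 6 bases, so that it overlapped or touched the 5′ splice site. Those 5 are shown because the splice site letters themselves supply or adjoin the stop, with 15 bases before the stop and 12 after it, 5′ to 3′ on the gene's strand, and the stop codon in capitals. Sequences and coordinates are from RefSeq's TAIR10.1.
NAC099 (chr5:22918349-22918378, minus strand): tttccacaattctggTAGgaccaaaaaatc
SPL10 (chr1:9505701-9505730, minus strand): cttccagacaaaggtTGAtatcttcacttc
AT2G31580 (chr2:13441921-13441950, minus strand): agacaagttgactgtTAGtataataacact
AT1G10810 intron 1 (chr1:3599579-3599608, plus strand): ctccttggtcaggttTGAattcgagatatc
AT3G59660 (chr3:22034764-22034793, minus strand): ataagagtcggtaagTAAaccaaagtaatg
NAC099 reads TAG from base 2, SPL10 and AT2G31580 read TGA and TAG from base 3, AT1G10810 reads TGA from base 4 of its intron 1, and AT3G59660 reads TAA from base 6.

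The next 6 windows come from introns in which the stop lay further in, and are shown because these introns had the largest difference (AT1G72416), at least 20 reads in each genotype, or both kinds of position relative to the last exon junction. The intron of 5PTASE13, with its stop at base 71 of 97, also had at least 20 reads in each genotype and is not shown. Capitals again mark the first stop codon in frame.
AT1G72416 (chr1:27259113-27259142, minus strand): acaaaaataaactttTGAaatgaaaatgta
AAP7 (chr5:8029720-8029749, plus strand): cataatgacgccaagTAAgattaattaaca
CYP72A13 (chr3:4925563-4925592, plus strand): aagctttcttttccgTAGtcccagtttagc
CHY1 (chr5:26377120-26377149, minus strand): caagctttttccatcTGAaaccgtctttgt
PHS1 (chr3:17464088-17464117, plus strand): tctttcaaaaaaacaTAAtctcttgatcct
AT5G13200 (chr5:4207795-4207824, plus strand): aaagtcttgcttttgTAAaagaatgaattt
These stops began at base 94 of 176 in AT1G72416, 37 of 122 in AAP7, 22 of 96 in CYP72A13, 22 of 76 in CHY1, 52 of 85 in PHS1 and 22 of 90 in AT5G13200. One further site stands apart by its first letters: intron 4 of AT1G10810 begins with GC, in capitals here after the last 10 exon bases.
AT1G10810 intron 4 (chr1:3600317-3600346, plus strand): ctacagaaagGCaagtccatcactatatga

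The retained share is the number of inclusion reads (headed IC in the table) over inclusion and skipping reads (headed SC). No correction for the number of read positions was possible, so shares are compared between genotypes at an intron and not between introns. Over the 37 introns the median share was 28.6% in the mutant and 79.5% in the wild type, and the median difference was 30.1 percentage points. The authors' deposited table gives these introns a false discovery rate (FDR) between 1.24e-12 and 0.05, with 6.45e-09 for CHY1 and 2.05e-06 for intron 1 of AT1G10810. From the p-values and FDRs the authors tested 5174 introns, of which 115 (2.22%) were listed and 51 (0.986%) were listed with a lower mutant share. These shares describe how the members came about and say nothing further of them. Since listed introns all had an FDR of up to 0.05, the median difference need not hold for the other tested introns.

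Reads per intron ran from 6 to 1377 in the mutant (median 37) and from 10 to 2267 in the wild type (median 68), and 22 of the 37 introns had at least 20 reads in each genotype. Library totals were not analysed here. Intervals are exact Clopper-Pearson intervals at 95% and cover counting error only. No label says what the 3 joined values are, so they are given as a spread and not as replicates. At 24 of the 37 introns all 3 mutant values lay below all 3 wild-type values, where 31.3% of the 115 listed introns did so, and since direction chose the members nothing is read from that count. At the other 13 introns the values of the genotypes overlapped or touched. Of the 22 introns with at least 20 reads in each genotype, 18 were separated. Over all 78 listed introns with that many reads, 28 had all 3 mutant values below all 3 wild-type values. Among the 64 more retained introns the values overlapped or touched at 11. Nothing is read from the count of 18 either. The member nearest to no difference was AT2G48130, at 5.68 points, and the nearest intron on the other side was that of AT1G77420, at 100% of 288 mutant reads and 95.1% of 655 wild-type reads.

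**Figure D1:**
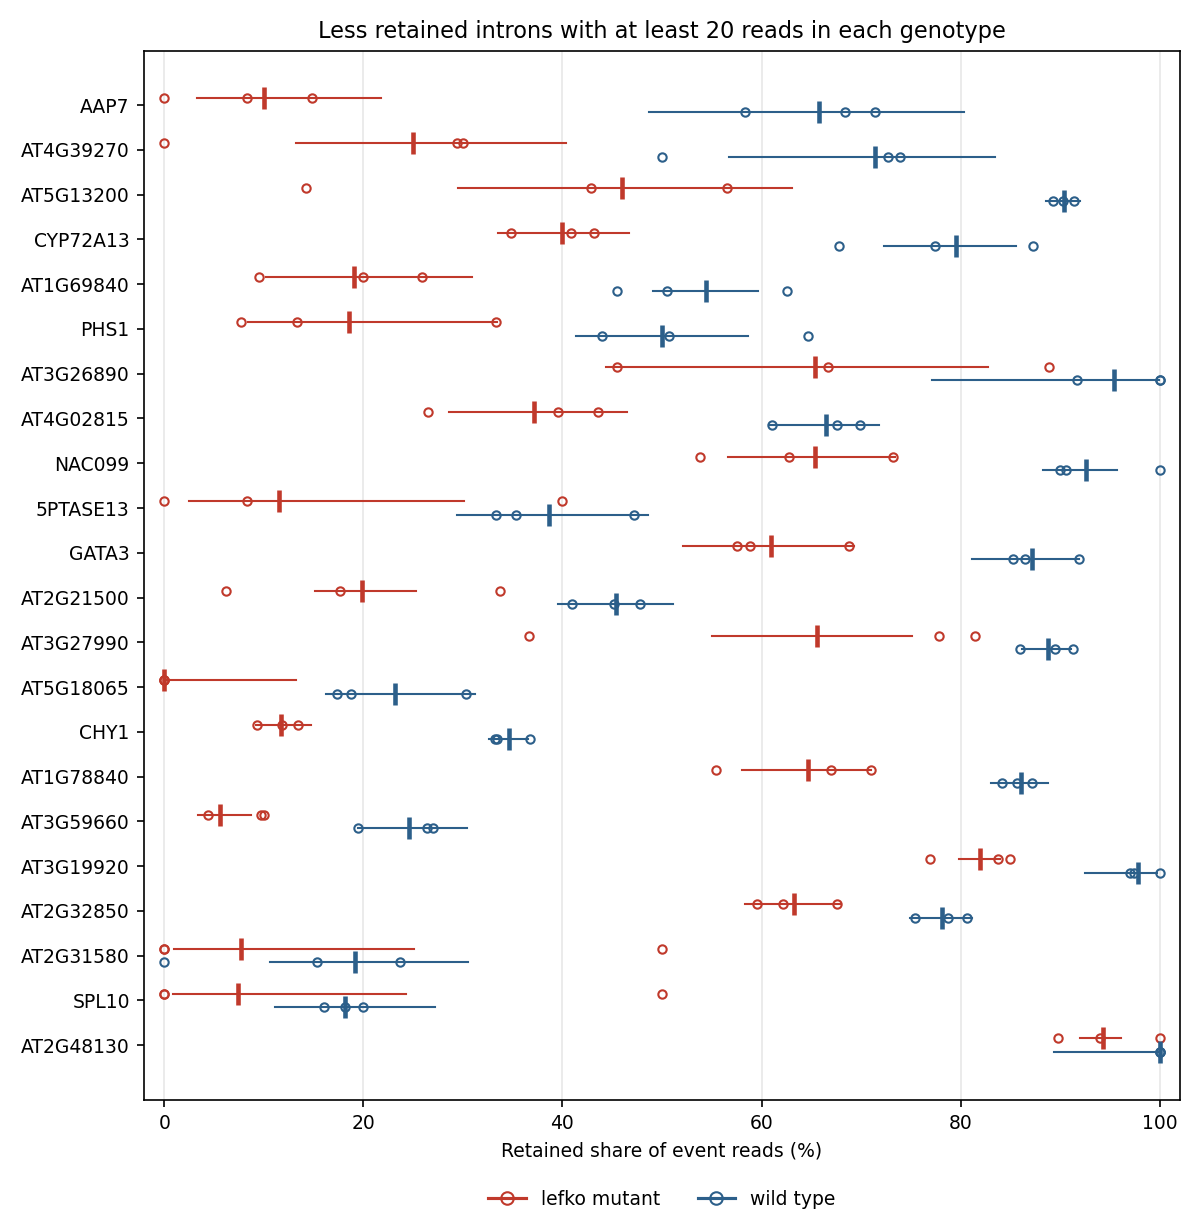
Retained share (%, horizontal axis) of the 22 less retained introns with at least 20 reads in each genotype, the lefko mutant in red above the wild type in blue. Ticks are shares of the summed reads, lines their exact 95% counting intervals and open circles the 3 joined values; the circles of the genotypes are apart at 18 introns and overlap or touch at 5PTASE13, AT2G31580, SPL10 and AT2G48130.

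The first class holds the 9 introns whose stop codon lay over 50 bases upstream of the last exon junction of the retained form. CHY1, which encodes beta-hydroxyisobutyryl-CoA hydrolase of valine breakdown in peroxisomes, had the most reads of all members. Its intron 13 of 14 (chromosome 5, 26377080 to 26377155, minus strand) was retained in 11.8% of 552 reads (9.21 to 14.8) in the mutant and in 34.6% of 2267 reads (32.6 to 36.6) in the wild type. The joined values were 11.9%, 9.27% and 13.4% in the mutant, against 36.8%, 33.3% and 33.4% in the wild type. They varied little within a genotype and did not overlap. AAP7 belongs to the amino acid permeases, although the annotation calls its product a nonfunctional transporter. Its intron 5 of 6 (chromosome 5, 8029699 to 8029820, plus strand) was retained in 10% of 50 reads (3.33 to 21.8) in the mutant and 65.8% of 38 reads (48.6 to 80.4) in the wild type. The values were 0%, 8.33% and 14.8% in the mutant and 58.3%, 68.4% and 71.4% in the wild type, again apart.

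CYP72A13 encodes a cytochrome P450 monooxygenase. Its intron 2 of 4 (chromosome 3, 4925557 to 4925652, plus strand) was retained in 40% of 225 reads (33.5 to 46.7) in the mutant and 79.5% of 156 reads (72.3 to 85.5) in the wild type, a difference of 39.5 points. The joined values were 34.8%, 43.2% and 40.8% in the mutant and 87.3%, 77.4% and 67.7% in the wild type, so both genotypes spliced part of the RNA and the values did not meet. PHS1 encodes a pyrimidine reductase of riboflavin synthesis, per the annotation. Its intron 10 of 11 (chromosome 3, 17464052 to 17464136, plus strand) was retained in 18.6% of 43 reads (8.39 to 33.4) in the mutant and 50% of 138 reads (41.4 to 58.6) in the wild type, with values of 33.3%, 13.3% and 7.69% in the mutant and 50.7%, 44% and 64.7% in the wild type. The highest mutant value stayed below the lowest wild-type value. AT3G59660 encodes a protein with C2 and GRAM domains, both found in proteins that bind membranes. Its intron 16 of 17 (chromosome 3, 22034697 to 22034783, minus strand), whose stop follows the GTAAG of the splice site, was retained in 5.59% of 322 reads (3.35 to 8.69) in the mutant and 24.6% of 252 reads (19.4 to 30.4) in the wild type. The values were 10%, 9.68% and 4.38% in the mutant and 27.0%, 26.4% and 19.4% in the wild type, low in both and apart.

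The other 4 introns of this class had 48 mutant reads or fewer. AT1G10810, an NAD(P)-linked oxidoreductase gene and the only gene with 2 members, retained intron 1 of 4 (chromosome 1, 3599591 to 3599676, plus strand) in 14.6% of 48 reads (6.07 to 27.8) in the mutant and 90.9% of 11 reads (58.7 to 99.8) in the wild type. The joined values were 0%, 41.7% and 9.09% in the mutant and 80%, 100% and 100% in the wild type, which do not overlap. 5PTASE13, an inositol polyphosphate 5-phosphatase gene, retained intron 9 of 10 (chromosome 1, 1686251 to 1686347, plus strand) in 11.5% of 26 reads (2.45 to 30.2) in the mutant and 38.7% of 106 reads (29.4 to 48.6) in the wild type. One mutant value lay inside the wild-type range, at 8.33%, 0% and 40% in the mutant and 47.2%, 33.3% and 35.3% in the wild type. AT2G31580 encodes the tRNAHis guanylyltransferase, which adds the extra base that histidine tRNA carries. Its intron 11 of 13 (chromosome 2, 13441838 to 13441937, minus strand) had 7.69% of 26 reads (0.946 to 25.1) in the mutant and 19.1% of 68 reads (10.6 to 30.5) in the wild type. The values overlapped, at 0%, 50% and 0% in the mutant and 15.4%, 23.7% and 0% in the wild type, and the mean of the 3 shares turned the direction, to 16.7% in the mutant and 13.0% in the wild type. AT2G33350, a gene with the CCT motif of CONSTANS-like proteins, had 28.6% of 7 reads (3.67 to 71.0) in the mutant and 54.9% of 51 reads (40.3 to 68.9) in the wild type at intron 4 of 5 (chromosome 2, 14136449 to 14136524, plus strand). Without the first joined value of each genotype its shares were 40% in the mutant and 35.5% in the wild type, so its direction turned too.

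In the remaining 6 coding introns with a stop, the intron was the last of its transcript, so that the retained form has no exon junction after the stop. AT5G13200 encodes a GRAM domain protein and had by far the deepest wild-type coverage among these. Its intron 2 of 2 (chromosome 5, 4207789 to 4207878, plus strand) was retained in 45.9% of 37 reads (29.5 to 63.1) in the mutant and 90.4% of 1204 reads (88.6 to 92.0) in the wild type. The values were 14.3%, 42.9% and 56.5% in the mutant and 91.4%, 89.3% and 90.2% in the wild type, wide in the mutant and narrow in the wild type, without overlap. NAC099 encodes a NAC domain protein, one of a plant family of transcription factors. Its intron 7 of 7 (chromosome 5, 22918276 to 22918364, minus strand) was retained in 65.4% of 133 reads (56.7 to 73.4) in the mutant and 92.6% of 216 reads (88.2 to 95.7) in the wild type, with values of 53.8%, 73.2% and 62.7% in the mutant and 90.6%, 90% and 100% in the wild type. The genotypes were apart, but exons of AT5G56610 on the opposite strand cover 100% of this intron. The sources used here do not say whether reads were counted by strand, and without strand the reads of both genes cannot be told apart.

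SPL10 encodes a squamosa promoter binding protein-like transcription factor, of a family that a microRNA represses in young Arabidopsis embryos. Its intron 4 of 4 (chromosome 1, 9505609 to 9505717, minus strand) was retained in 7.41% of 27 reads (0.910 to 24.3) in the mutant and 18.2% of 99 reads (11.1 to 27.2) in the wild type. The values were 0%, 0% and 50% in the mutant and 18.2%, 16% and 20% in the wild type. They overlapped, and without the first joined value the shares were 25% in the mutant and 18.2% in the wild type, the reverse direction. AT1G72416, a gene for a protein with a DnaJ chaperone domain, had the largest difference of all members at intron 5 of 5 (chromosome 1, 27259045 to 27259220, minus strand), with 0 of 8 reads in the mutant and 13 of 13 reads in the wild type. No mutant value held an inclusion read, at 0%, 0% and 0%, and no wild-type value held a skipping read, at 100%, 100% and 100%. A count of 0 inclusion reads allows a mutant share of up to 37.5%. Intron 4 of AT1G10810 (chromosome 1, 3600327 to 3600421, plus strand) was retained in 16.5% of 97 reads (9.73 to 25.4) in the mutant and 86.7% of 15 reads (59.5 to 98.3) in the wild type. Its values were 9.68%, 22.6% and 17.1% in the mutant and 100%, 77.8% and 100% in the wild type. At both listed introns of AT1G10810, the first and the last of its transcript, every mutant value thus lay below every wild-type value. AT5G50130, of the NAD(P)-binding Rossmann-fold family, retained intron 7 of 7 (chromosome 5, 20392635 to 20392843, plus strand) in 37.5% of 16 reads (15.2 to 64.6) in the mutant and 95% of 20 reads (75.1 to 99.9) in the wild type, and its values were apart.

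The other 6 introns between coding exons had no stop in frame, and all 6 had a length that is a multiple of 3. Compared with the spliced transcript, a retained copy would add codons and leave the annotated end of the protein in place. RefSeq also annotates the retained form: at SLG1 the stretch is exon in 6 of 8 transcripts and intron in 2. In the other genes of this class, equal numbers of transcripts hold the stretch as exon and as intron. AT3G19920, a BTB/POZ domain gene, had the most mutant reads of all members. Its intron 1 of 3 (chromosome 3, 6931461 to 6931583, minus strand, 41 codons) was retained in 82.0% of 1377 reads (79.9 to 84.0) in the mutant and 97.8% of 93 reads (92.4 to 99.7) in the wild type. The values were 77.0%, 83.7% and 85% in the mutant and 97.0%, 100% and 97.4% in the wild type, high in both and apart. AT2G32850 encodes a protein kinase. Its intron 8 of 8 (chromosome 2, 13935642 to 13935701, minus strand), the shortest member at 60 bases or 20 codons, was retained in 63.2% of 416 reads (58.4 to 67.9) in the mutant and 78.2% of 705 reads (74.9 to 81.2) in the wild type. Its values were 62.2%, 59.6% and 67.5% in the mutant and 80.6%, 75.4% and 78.7% in the wild type, also apart.

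FMO GS-OX2, a flavin monooxygenase that oxidises the side chain of glucosinolates, had no inclusion read in 13 mutant reads, which allows up to 23.1%, and 28.7% of 136 reads (21.3 to 37.1) in the wild type. Its intron 5 of 6 (chromosome 1, 23154589 to 23154663, plus strand) would add 25 codons. AT3G53830, of the RCC1 family, had 5.56% of 18 reads (0.141 to 27.3) in the mutant and 63.3% of 30 reads (43.9 to 80.1) in the wild type at intron 4 of 11 (chromosome 3, 19941601 to 19941684, plus strand, 28 codons), and its highest mutant value equalled its lowest wild-type value. AT1G66940, a kinase-like gene, had 2 of 6 reads in the mutant and 9 of 11 reads in the wild type at intron 3 of 4 (chromosome 1, 24973492 to 24973578, minus strand, 29 codons). SLG1, a repeat protein needed for editing of mitochondrial transcripts, had 3 of 6 reads in the mutant and 19 of 21 reads in the wild type at intron 1 of 3 (chromosome 5, 2745714 to 2745818, minus strand, 35 codons). The joined values of AT1G66940 and SLG1 overlapped, and both rest on 6 mutant reads.

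**Figure D2:**
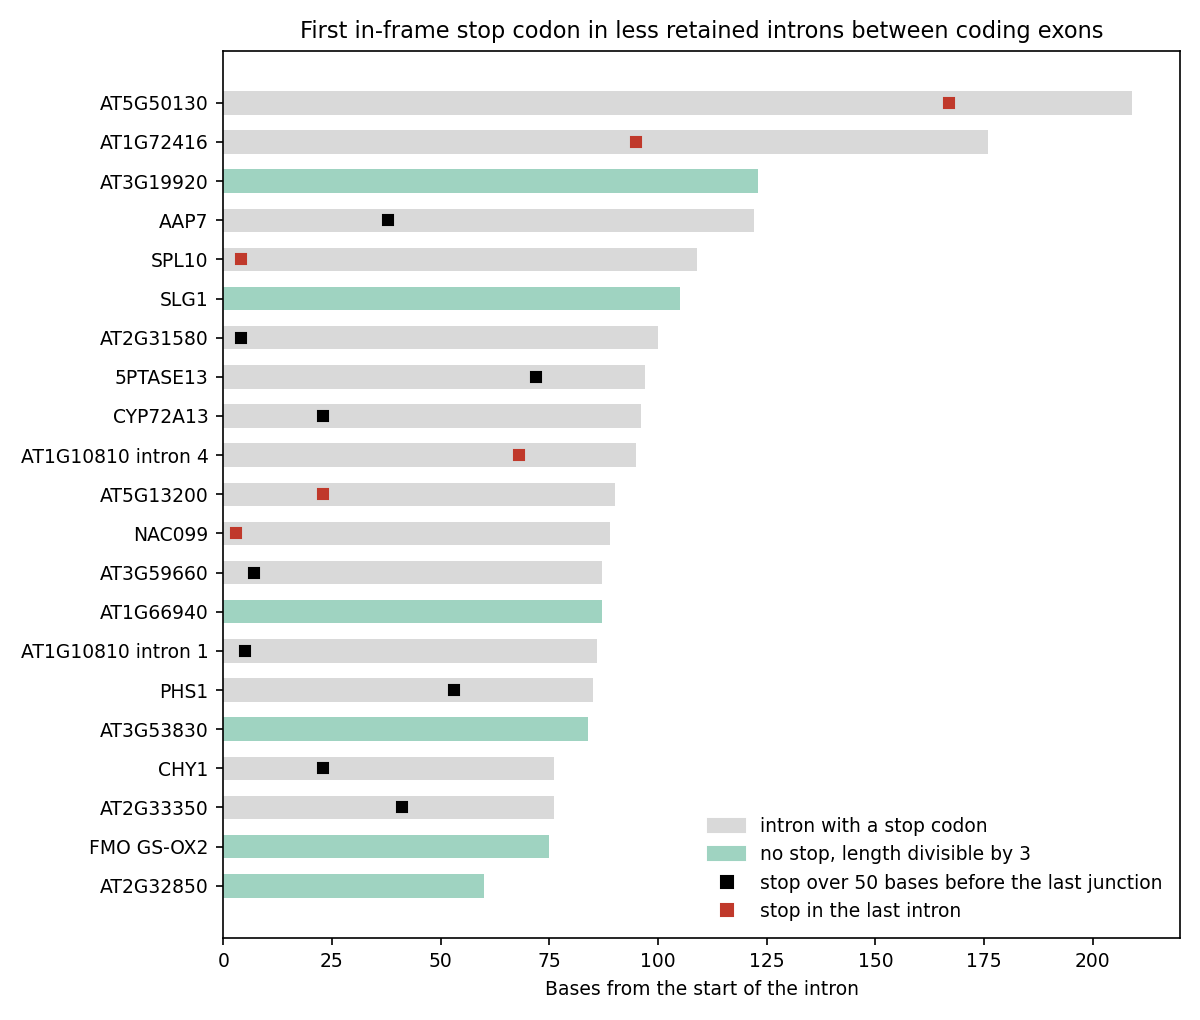
Length of the 21 less retained introns between coding exons (bases from the start of the intron, horizontal axis), sorted by length, with the first in-frame stop codon as a square. The stop lies over 50 bases before the last exon junction in 9 introns (black) and in the last intron of the transcript in 6 (red); the 6 green bars have no stop and a length divisible by 3.

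Among the 64 introns that were more retained in the mutant, 23 lay between coding exons, and 17 of these held a stop in frame, against 15 of 21 among the less retained. The share with a stop was 71.4% of the less retained coding introns and 73.9% of the more retained ones. The stop was in the last intron in 6 of 15 less retained introns and in 1 of 17 more retained ones. A length divisible by 3 without a stop was found in 6 of 21 less retained introns and 3 of 23 more retained ones. The first stop began at a median of base 22 (2 to 166) in the less retained introns and base 32 (2 to 142) in the more retained ones. TAA was the first stop in 8 of the 15, TGA in 4 and TAG in 3. Over all 51 less retained introns, the 14 left out included, 23 of 30 coding introns held a stop, in 10 of them as the last intron. None of these differences was tested.

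Another 7 of the 37 introns lay in the 5′ UTR. AT1G69840, which encodes a membrane-associated protein of the prohibitin-like SPFH family, had the most reads. Its intron 1 of 5 (chromosome 1, 26295160 to 26295447, minus strand) was retained in 19.0% of 63 reads (10.2 to 30.9) in the mutant and 54.4% of 364 reads (49.1 to 59.6) in the wild type. The values were 9.52%, 20% and 25.9% in the mutant and 62.6%, 45.5% and 50.5% in the wild type, without overlap. The alternative 5′ splice site table lists a second event of this leader, joined to the same downstream exon, with the longer exon in 4.35% of 115 mutant reads and 39.1% of 225 wild-type reads. GATA3 encodes a GATA zinc finger transcription factor. Its intron 1 of 2 (chromosome 4, 16553480 to 16553694, plus strand) was retained in 60.9% of 133 reads (52.1 to 69.2) in the mutant and 87.2% of 164 reads (81.1 to 91.9) in the wild type, with values of 68.8%, 58.8% and 57.6% in the mutant and 86.4%, 85.3% and 91.9% in the wild type. These were apart. AT3G26890, annotated as a meiosis chromosome segregation family gene, retained its 814-base intron 1 of 5 (chromosome 3, 9910793 to 9911606, minus strand) in 65.4% of 26 reads (44.3 to 82.8) in the mutant and 95.5% of 22 reads (77.2 to 99.9) in the wild type. Its values were 66.7%, 88.9% and 45.5% in the mutant and 91.7%, 100% and 100% in the wild type, close at their nearest points and not overlapping.

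The joined values of the other 4 introns in the 5′ UTR overlapped or touched. RTH, a homologue of a regulator of ethylene receptors, had 9 of 15 reads in the mutant and 18 of 18 reads in the wild type at intron 1 of 3 (chromosome 3, 18953367 to 18953641, minus strand). AT1G54280, of the E1-E2 ATPase family of membrane pumps, had 4 of 14 reads in the mutant and 18 of 21 reads in the wild type at intron 2 of 11 (chromosome 1, 20267350 to 20267541, minus strand). AT2G39950, annotated as a flocculation protein, had 6 of 12 reads in the mutant and 9 of 10 reads in the wild type at intron 2 of 3 (chromosome 2, 16678279 to 16678966, minus strand). NET3C, which links the actin cytoskeleton to membranes, had 1 of 11 reads in the mutant and 12 of 58 reads in the wild type at intron 1 of 2 (chromosome 2, 19615868 to 19615982, plus strand). Each of the 4 thus rests on 15 mutant reads or fewer.

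In the 3′ UTR lay 3 introns, all with at least 20 reads in each genotype and all separated. AT2G21500 encodes a RING/U-box protein, a domain of ubiquitin ligases. Its intron 4 of 4 (chromosome 2, 9207887 to 9207960, minus strand) was retained in 19.8% of 257 reads (15.1 to 25.3) in the mutant and 45.3% of 300 reads (39.6 to 51.2) in the wild type. The values were 17.6%, 6.25% and 33.7% in the mutant and 41.0%, 47.7% and 45.2% in the wild type, with a wide spread in the mutant. AT4G39270, a leucine-rich repeat receptor-like kinase gene, retained intron 2 of 3 (chromosome 4, 18278986 to 18279065, plus strand) in 25% of 44 reads (13.2 to 40.3) in the mutant and 71.4% of 49 reads (56.7 to 83.4) in the wild type. Its values were 30%, 29.4% and 0% in the mutant and 73.9%, 72.7% and 50% in the wild type. In another annotated transcript of AT4G39270 the same intron lies between coding exons, and its frame there was not read for a stop codon. AT5G18065 is annotated as a target of trans-acting small RNAs. Its intron 3 of 3 (chromosome 5, 5980026 to 5980115, plus strand) had no inclusion read in 26 mutant reads, which allows up to 11.5%, and 23.1% of 134 reads (16.3 to 31.2) in the wild type. All 3 mutant values were at 0%, against 30.4%, 17.4% and 18.8% in the wild type.

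Transcripts without coding sequence held 4 introns. AT4G02815, an uncharacterised RNA gene with no gene annotated on the other strand of its intron, retained intron 1 of 2 (chromosome 4, 1876196 to 1876342, minus strand) in 37.2% of 121 reads (28.6 to 46.4) in the mutant and 66.4% of 298 reads (60.8 to 71.8) in the wild type. The values were 26.5%, 39.6% and 43.6% in the mutant and 69.8%, 61.1% and 67.5% in the wild type, and did not overlap. AT3G27990 retained the longest member, a 3480-base intron 5 of 6 (chromosome 3, 10393201 to 10396680, minus strand), in 65.6% of 93 reads (55.0 to 75.1) in the mutant and 88.8% of 679 reads (86.2 to 91.1) in the wild type. Its values were 36.7%, 77.8% and 81.5% in the mutant and 91.3%, 86.0% and 89.5% in the wild type, apart but wide in the mutant. Exons of AT3G27980, a protein-coding gene on the plus strand, cover 42.9% of this stretch. AT5G36002 and AT4G04221 are annotated as antisense transcripts, and exons of AT5G36001 and RLP46 on the plus strand cover 100% of their introns. AT5G36002 had 4 of 10 reads in the mutant and 31 of 34 reads in the wild type at intron 2 of 3 (chromosome 5, 14141950 to 14142043, minus strand), with overlapping values. AT4G04221 had 3 of 16 reads in the mutant and 23 of 33 reads in the wild type at intron 2 of 3 (chromosome 4, 2035322 to 2035436, minus strand), with values apart. At these 3 genes, as at NAC099, reads of the 2 strands cannot be told apart without strand information.

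For the last 2 members the annotation holds no identical intron in the listed gene. The intron listed under AT1G78840, an F-box gene (chromosome 1, 29648197 to 29649384, minus strand), lies 7179 bases outside that gene and inside AT1G78865, a non-coding RNA gene on the same strand (chromosome 1, 29647738 to 29649951). It was retained in 64.7% of 221 reads (58.0 to 71.0) in the mutant and 86.1% of 595 reads (83.0 to 88.7) in the wild type. The values were 67.0%, 55.4% and 71.0% in the mutant and 87.2%, 85.7% and 84.1% in the wild type, and were apart. Exons of AT1G09833, a non-coding gene on the plus strand, cover 7.49% of it. AT2G48130 encodes a lipid-transfer protein, of a family that carries lipids to plant surfaces. The 1177-base stretch listed for it (chromosome 2, 19683925 to 19685101, minus strand) begins with GC and ends with AG, and was retained in 94.3% of 528 reads (92.0 to 96.1) in the mutant and 100% of 33 reads (89.4 to 100) in the wild type. Its values were 89.8%, 94% and 100% in the mutant and 100%, 100% and 100% in the wild type, which touched at 100%.

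Seen along the gene, the 35 introns that equalled an annotated one lay at a median of 69.7% of the transcript's genomic span from its 5′ end (7.03 to 89.2), against 36.7% (1.14 to 98.3) over the 53 annotated introns that were more retained. The annotation put 7 of 37 less retained introns (18.9%) and 20 of 64 more retained ones (31.3%) in the 5′ UTR, and 21 (56.8%) and 23 (35.9%) between coding exons. These shares count 2 less retained and 11 more retained introns that equalled no annotated one and so had no place. Over the annotated introns, 7 of 35 and 20 of 53 lay in the 5′ UTR, and 21 of 35 and 23 of 53 between coding exons. Between coding exons alone the medians were 73.6% over 21 less retained introns and 45.2% over 23 more retained ones, and 16 of the 21 lay beyond the middle, against 11 of the 23. The first intron of the transcript was listed in 9 of the 35 less retained and 24 of the 53 more retained introns, and the last in 9 and 13. Over all 51 less retained introns the median position was 70.5%, and 30 (58.8%) lay between coding exons. The difference in position was not tested.

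**Figure D3:**
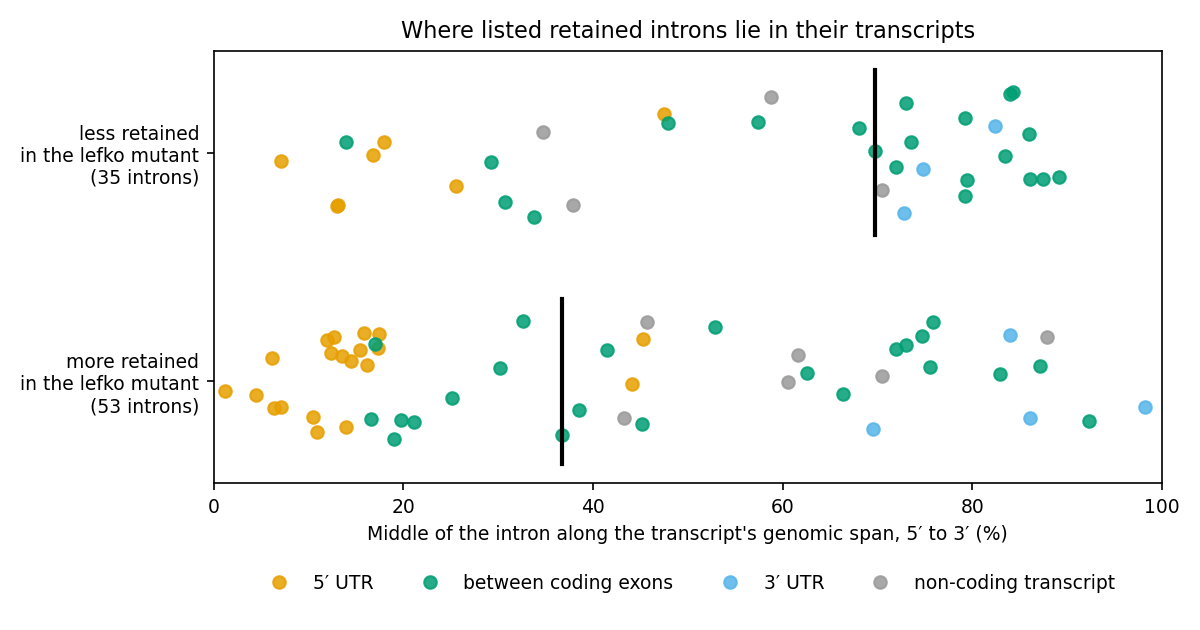
Position of the middle of each intron along its transcript (% of the genomic span from the 5′ end, horizontal axis), for 35 introns less retained and 53 more retained in the lefko mutant, coloured by place; vertical scatter only separates points and black bars are medians. The medians are 69.7% and 36.7%, and most 5′ UTR introns lie in the left part of both groups.

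In median length members lay close to all annotated introns. The median length was 100 bases in the less retained introns (middle 50% from 87 to 192, whole range 60 to 3480) and 195.5 bases in the more retained ones (57 to 1204), against 101 over the 131098 annotated introns of protein-coding nuclear genes with at least 20 bases. Between coding exons the medians were 90 bases in less retained and 199 in more retained introns, and in the 5′ UTR they were 275 and 169.5. Set against the median of the other introns of its own transcript, 19 of 35 less retained introns were shorter and 13 longer. Both introns of AT1G10810, which lie in 1 transcript, are counted there. Of 50 more retained introns with another intron in the transcript, 19 were shorter and 30 longer. Over 500 bases were 5 members: AT3G27990, AT1G78840, AT2G48130, AT3G26890 and AT2G39950. The share of G and C had a median of 34.2% in less retained introns (23.6 to 43.3), 34.9% in more retained ones and 32.8% over all annotated introns. It was lowest in NAC099 and AT1G72416, at 23.6% and 23.9%, and highest in 5PTASE13.

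GT at the first and AG at the last bases were found in 35 of the 37 introns, and GC with AG in the other 2, AT1G10810 intron 4 and AT2G48130, where 98.7% and 1.11% of all annotated introns have these ends. The stretch of AT2G48130 equals no annotated intron, and the bases that follow its AG are a run of A, so its GC and AG are the ends of a listed stretch and not those of an annotated intron. The letters GTAAG, searched at the first 5 bases of the intron on the gene's strand, opened 6 of the 37 less retained introns (16.2%), 7 of the 64 more retained ones (10.9%) and 16.8% of all annotated introns. At 36 of the 37 introns RefSeq holds a transcript of the listed gene in which the whole stretch is exon, against 52 of the 64 more retained introns. The exception was AT1G78840, whose stretch lies outside the gene. The retained form was therefore already annotated for nearly all members. Whether the calling of events required an annotated retained form is not given in the sources used here, so these counts are not read as a trait of the members.

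A lower share can come with fewer inclusion reads, with more skipping reads, or with both. Libraries were not scaled to depth, and the median intron of the whole table had 0.510 times as many reads in the mutant as in the wild type. In bulk samples, fewer cells of a type and less RNA per cell cannot be told apart. With 0.5 reads added to every count, the mutant had a median of 0.229 times the wild-type inclusion reads and 1.52 times the skipping reads over the 37 introns. Over the 22 introns with at least 20 reads in each genotype these medians were 0.255 and 0.967 times. Since members were chosen by the share, the order of these ratios is set by the rule. Inclusion reads were fewer in the mutant at 34 introns and more at 3, while skipping reads were more at 22 and fewer at 15. Among the 22 introns with at least 20 reads in each genotype the majority for skipping reads turned, with more at 10 and fewer at 12. Over all 115 listed introns inclusion reads were fewer in the mutant at 80 and skipping reads at 81.

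Single introns differed in this. CYP72A13 had 0.726 (0.547 to 0.960) times the inclusion reads and 4.22 (2.85 to 6.41) times the skipping reads in the mutant, with exact 95% counting intervals in brackets. NAC099 had 0.435 (0.334 to 0.562) and 2.88 (1.60 to 5.44) times, and GATA3 0.566 (0.426 to 0.749) and 2.48 (1.47 to 4.33) times. At these 3 introns skipping reads were more numerous in the mutant and inclusion reads fewer, and at NAC099 reads of AT5G56610 on the other strand cannot be told apart. At CHY1 both kinds were fewer, at 0.0829 (0.0634 to 0.107) and 0.328 (0.296 to 0.364) times. AT5G13200 had the lowest total of all members, at 0.0307 (0.0215 to 0.0426) times the wild-type reads. AT2G32850 had 0.477 (0.411 to 0.554) times the inclusion reads and 0.994 (0.789 to 1.25) times the skipping reads, so the number of spliced reads was nearly equal. The 3 introns with more inclusion reads in the mutant were those of AT3G19920, AT2G48130 and intron 4 of AT1G10810. Their totals were 14.8 (12 to 18.5), 16 (11.3 to 23.5) and 6.47 (3.73 to 12) times the wild type. At these loci a lower share stood beside more reads of both kinds. At intron 4 of AT1G10810 the inclusion reads were 16 in the mutant and 13 in the wild type. That ratio of 1.23 has a counting interval (0.555 to 2.78) that includes equal numbers, so more inclusion reads are not shown there. Its skipping reads were 81 and 2.

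**Figure D4:**
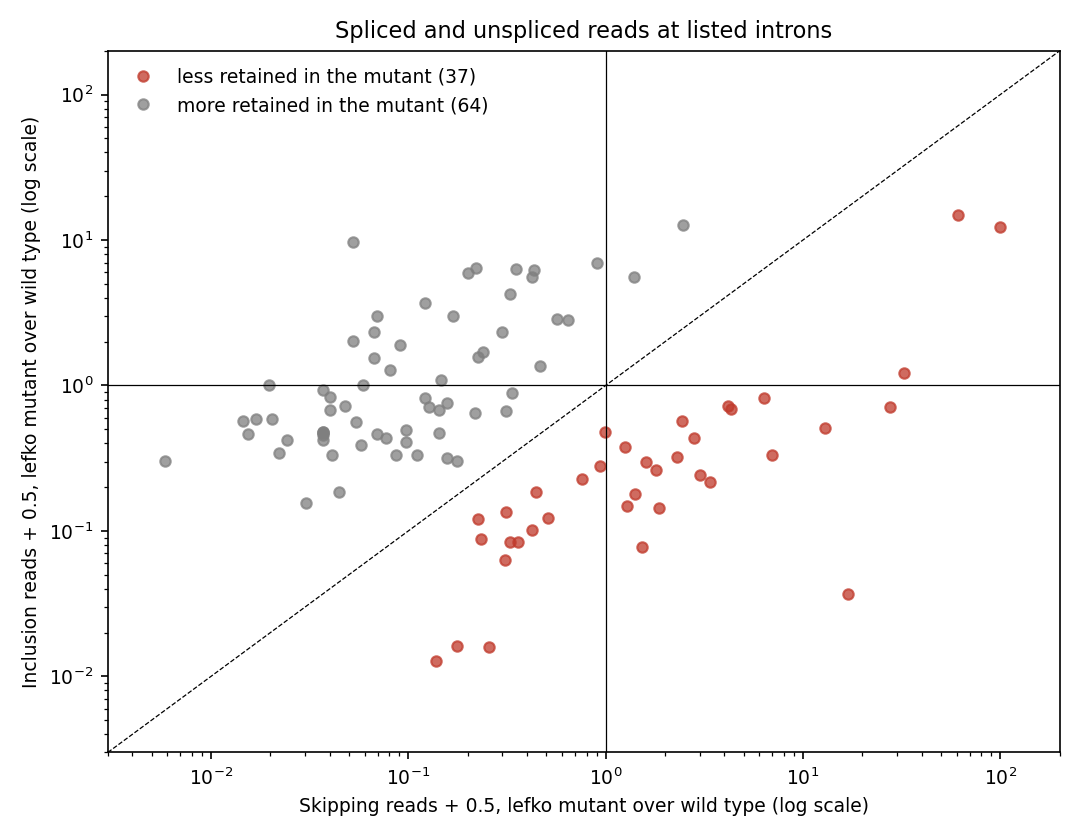
Ratio of mutant to wild-type skipping reads (horizontal, log scale) and inclusion reads (vertical, log scale), with 0.5 reads added, for 37 less retained introns (red) and the 64 more retained ones (grey). Below the dashed diagonal the retained share is lower in the mutant, which the rule sets; 34 of the red points lie below the horizontal line at equal inclusion reads, and 22 lie right of the vertical line at equal skipping reads.

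The genes have no single function. By words in the annotated product or symbol of the listed gene, a list chosen with earlier results known, 17 of the 36 genes fell into at least 1 of 8 classes and 19 into none. Kinases and kinase-interacting proteins numbered 4 (AT1G66940, AT2G32850, AT4G39270 and NET3C), genes with metabolism words 4 (AT1G10810, AT1G54280, AT2G31580 and CHY1) and non-coding genes 4 (AT3G27990, AT4G02815, AT4G04221 and AT5G36002). AT1G54280 and AT2G31580 entered metabolism only by hydrolase and transferase in their product names. Each is also counted in another class, so the metabolism words do not describe their main role. DNA-binding proteins numbered 2 (GATA3 and NAC099), protein turnover 2 (AT2G21500 and AT1G78840), and RNA handling, chaperones and transport 1 each (AT2G31580, AT1G72416 and AT1G54280). Over the 64 genes with a more retained intron the same words gave 8 kinases, 8 genes with metabolism words, 6 non-coding genes, 2 DNA-binding, 1 protein turnover, 3 RNA handling, 0 chaperone and 2 transport genes. The intron listed under AT1G78840 lies in a non-coding RNA gene and outside the F-box gene that put it in protein turnover, so 1 of those 2 does not describe the RNA that was measured. The words do not capture every known role: among the 19 genes in no class are SPL10, a transcription factor, AAP7, an amino acid permease, SLG1, an RNA editing factor, and enzymes such as CYP72A13, FMO GS-OX2, PHS1 and 5PTASE13. The list of 13 names was left out of the members and not out of the 64 genes. PTM, a name on that list, is 1 of the 2 DNA-binding genes counted among the 64. Classes were not counted over all 51 less retained introns, so the 2 sets of class counts are not alike in what was left out. No enrichment was tested.

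Of the 36 genes, 2 also stood in another of the authors' tables. AT1G69840 was listed for its alternative 5′ splice site, as above. AT3G27990 was listed for an alternative 5′ site, with the longer exon in 60.5% of 81 mutant reads and 88.1% of 641 wild-type reads, and for an alternative 3′ site, with 58.4% of 77 and 87.0% of 586. All 3 AT3G27990 events have 32 skipping reads in the mutant and 76 in the wild type, so they share reads and count as 1 observation. The tables list events and no expression levels, so the labelled embryo tissue could not be checked by markers. None of 6 embryo and 5 endosperm genes named as markers had a listed event, and of 5 seed coat genes 1 had one, STK, which is no member.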

How the data were processed

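RNA of 1 lefko mutant and 1 wild-type sample was sequenced. The submitters' processing notes name HISAT2 2.0.4 and TAIR10; the program that counted and called events is not given in the sources used here. Deposited by the authors were 4 tables of events with whole read counts, 3 values joined per cell and genotype, and a p-value and an FDR per event. The joined counts were added up and a genotype was treated as 1 sample, because the unit of the 3 values is not labelled, and no count model was fitted. Starts are counted from 0 in the table: 295 of its 345 exons equalled a TAIR10.1 RefSeq exon with that reading and 0 otherwise. Each intron was placed in the coding transcript with the most exons that holds it, and its frame was read from the annotated start codon. All 110 gene identifiers were matched. The number of introns tested is the median of FDR times rank over p, within 1% in 106 of 110 rows with p above 0. Members, gene classes and comparisons were chosen with earlier results of these data known. Every member is named, and joined values are given for those with at least 20 reads in each genotype and for the 3 with the largest difference. Code was checked on simulated transcripts. Python 3.11.15, pandas 2.3.3, SciPy 1.17.1 and matplotlib 3.10.9 were used. PCR duplicates were not identified by molecular tags as far as the labels say, so intervals and limits (3 reads for a count of 0) cover counting error only.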

Additional observations from a re-analysis of the deposited data

How the results depend on the processing

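Of 32 recomputed values, 26 stayed within the tolerance (1.5 times for counts and medians, 12.1 points for the median difference) and 6 moved. The number of less retained introns was 37, against 36 with the mean of the 3 shares, 22 with at least 20 reads in each genotype and 20 with an authors' FDR of 0.01 or less. It was 36 to 38 with each joined value left out in turn, counts that take in introns outside the 37. Of the 37 members, 35 stayed lower without the first joined value, and 37 without the second or the third. The median difference over the members was then -34.1 to -25.9 points. Of the 24 separated introns, 15 had at least 5 reads behind every value. With at least 20 reads in each genotype, 12 introns lay between coding exons and 3 in the 5′ UTR, and the median ratio of skipping reads was 0.967 and not 1.52; fewer introns enter these settings by construction. A share per length was not computed, because the table lists no lengths that reads can fall on. No paired analysis was possible because each genotype is 1 sample. Mutant shares rest on a median of 37 reads, so differences of a few points were not detectable at most introns.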
